A study of Rattus norvegicus with 9 samples.

Results

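The acute phase, complement and IL-6 signal genes of the liver were followed as a list of 40 named genes, of which 16 code for positive acute phase proteins, 14 for complement proteins and 10 for cytokine signal proteins. Each gene was measured by its probe set with the highest mean log2 signal over all 9 arrays, among the probe sets that the annotation gives to that gene alone. By this rule 35 of the 40 genes were measured, of 14217 genes with a probe set of their own on the array: 15 acute phase genes, 10 complement genes and 10 cytokine signal genes. Saa4, C2, C4a, C4b and Cfb have no probe set of their own in the annotation and were left out. All 35 measured genes passed the filter on low signals and were tested.

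The livers came from male Goto-Kakizaki (GK) rats, an inbred strain with spontaneous diabetes. The rats were bought at 5 weeks of age and kept for 7 weeks until blood glucose reached at least 11 mmol/L. They were then divided at random into unstressed controls and rats under chronic unpredictable mild stress (CUMS), housed singly and stressed daily for 8 weeks. All rats, the controls too, had been given repaglinide, an insulin secretagogue, by gavage at 6 mg/kg and bled repeatedly before the livers were taken, at about 20 weeks of age. The arrays cover 3 groups of 3 rats each: control 1–3 (symptom label undepression), CUMS 1–3 (Major Depression) and CUMS 4–6 (Mild Depression). How the labels major and mild were assigned is not given in the sources used here. The study kept 10 rats per group, and which of them gave arrays is not stated.

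In the acute phase response, interleukin 6 binds its receptor Il6r and the shared chain Il6st (gp130) on hepatocytes, and the Janus kinases then activate the transcription factor Stat3. Stat3, together with C/EBP factors such as Cebpb and Cebpd, raises transcription of plasma protein genes, and Socs3 is induced in turn and shuts the signal off. Interleukin 1 and tumour necrosis factor act beside it through Il1r1 and Tnfrsf1a and the NF-kappaB inhibitor Nfkbia. In the rat, alpha-2-macroglobulin (A2m) is the classic strongly inducible acute phase protein, whereas C-reactive protein (Crp) circulates at a steady high level. Hepatocytes also make most circulating complement proteins, several of which are themselves acute phase proteins.

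The 3 fibrinogen genes are shown for the sequence that this signal reads, because they lie side by side, code for the chains of one clotting protein and are textbook targets of Stat3 and C/EBP factors. The sequences below are the 250 bases before the start of each gene from RefSeq (rat GRCr8), 5′ to 3′ on the strand of the gene. Fga lies at chr2:170671919-170672168 on the plus strand, Fgb at chr2:170700876-170701125 on the minus strand and Fgg at chr2:170652833-170653082 on the plus strand, and the 3 starts span 47.8 kb. Fga has 2 entries in the table, and the first was used. Capitals mark matches, on either strand, to TTCNNNGAA (the core that STAT factors bind), CTGGGA (the core of the IL-6 response element) and TTGCNNAA (a C/EBP core).
Fga: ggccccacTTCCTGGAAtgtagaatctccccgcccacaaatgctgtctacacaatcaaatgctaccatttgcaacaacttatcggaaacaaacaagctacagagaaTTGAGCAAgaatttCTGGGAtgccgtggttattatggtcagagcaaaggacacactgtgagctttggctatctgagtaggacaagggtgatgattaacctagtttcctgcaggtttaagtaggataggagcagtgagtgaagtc
Fgb: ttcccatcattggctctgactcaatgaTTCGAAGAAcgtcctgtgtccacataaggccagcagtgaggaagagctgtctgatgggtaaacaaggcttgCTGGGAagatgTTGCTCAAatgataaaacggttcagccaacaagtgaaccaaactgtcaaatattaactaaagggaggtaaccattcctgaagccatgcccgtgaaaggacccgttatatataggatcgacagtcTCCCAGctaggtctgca
Fgg: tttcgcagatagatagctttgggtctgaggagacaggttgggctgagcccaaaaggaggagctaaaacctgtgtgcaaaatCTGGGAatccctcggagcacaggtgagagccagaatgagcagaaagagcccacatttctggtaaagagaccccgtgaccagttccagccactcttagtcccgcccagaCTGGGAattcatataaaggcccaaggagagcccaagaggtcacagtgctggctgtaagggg
Fga and Fgb each held all 3 motifs, and Fgg held CTGGGA at 2 places and neither of the others. Promoters were found in the table for 28 of the 35 genes. TTCNNNGAA was in 4 of the 28 (14.3%), against 7.67% of all 33469 promoters of the same length, CTGGGA in 12 (42.9%, against 25.7%) and TTGCNNAA in 9 (32.1%, against 9.22%). The 4 genes with TTCNNNGAA were Fga, Fgb, Itih4 and Serpina3n. A match is a description of these letters, not evidence of a bound site.

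No acute phase, complement or cytokine signal gene differed between the groups at the adjusted threshold, and the differences seen were mostly small and towards lower signals in the CUMS rats labelled major. Mean log2 signals of CUMS 1–3 were lower than those of control in 32 of the 35 genes, where 51.1% of all 18625 probe sets tested were lower. For CUMS 4–6 the count was 20 of 35, against 53.7% of all probe sets. CUMS 1–3 lay below CUMS 4–6 in 26 of 35, against 48.7%, and the mean of all 6 CUMS rats lay below control in 23 of 35, against 52.7%. With quantile normalization in place of the MAS 5.0 scaling the 3 counts were 28, 28 and 18 of 35, against 46%, 47.4% and 49.9% of all probe sets. With each array centred on its median they were 26, 16 and 27, against 42.6%, 43.5% and 50.7%. Comparisons with control use the same 3 control rats, so the counts for CUMS 1–3 and CUMS 4–6 are not independent of each other.

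In the test itself (limma, Benjamini-Hochberg adjustment over all probe sets), 0 of the 35 genes passed an adjusted p of 0.05 in each comparison, and 0% of all probe sets did so. The smallest adjusted p among the genes was 0.665 for CUMS 1–3 against control, 0.779 for CUMS 4–6 against control, 0.9996 between the CUMS groups and 0.517 for all 6 CUMS rats against control. At an unadjusted p under 0.05, CUMS 1–3 were lower than control in 3 genes, C1r, Masp1 and Il1rn, where 4.17% of all probe sets were lower at that level and 2.59% higher. CUMS 4–6 were lower in 1 gene, Il1rn, against 3.55% of all probe sets, and between the CUMS groups 0 genes passed, against 1.32% lower and 1.52% higher. For all 6 CUMS rats 2 genes were lower, C1r and Il1rn, against 4.86% lower and 3.07% higher. In CUMS 4–6 2.73% of all probe sets were higher at that level, and 0 of the genes.

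The separation of groups was counted as well. Every CUMS 1–3 rat lay below every control in 6 of the 35 genes (6.32% of all probe sets) and above in 0 (5.3%). Every CUMS 4–6 rat lay below every control in 3, A2m, C1r and Il1rn (6.29%), and above in 1 (5.34%). CUMS 1–3 lay wholly below CUMS 4–6 in 7 (4.37%) and above in 0 (4.75%). These shares moved with the scaling: the 6, 3 and 7 genes became 8, 6 and 2 with quantile normalization (5.55%, 4.79% and 4.37% of all probe sets) and 4, 0 and 2 with median centring (4.81%, 3.86% and 3.75%). Between the CUMS groups the count was 11 without CUMS 2 (8.16%) and 12 without CUMS 5 (8.68%), and for CUMS 4–6 against control it was 5 without control 3 (11%) and 10 without CUMS 4 (11.6%). ANOVA with equal variances, the test that the methods name, gave an unadjusted p under 0.05 to 5 lower genes in CUMS 1–3 (2.65% of all probe sets), to 0 in CUMS 4–6 (2.79%) and to 2 between the CUMS groups (2.05%). None passed the fold limits of the study as well, and none passed after Benjamini-Hochberg adjustment.

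Control 3 stood apart from the other arrays before any of these genes was considered. Its median correlation with the other arrays was 0.951, where the other arrays lay between 0.965 and 0.972. The brightest probe sets were dimmer in control 3 and CUMS 3 than in the other rats: the 294 probe sets of the top 1% that are not in the gene list lay 0.155 and 0.091 below the control mean (median, log2), while the other 7 rats lay between 0.030 and 0.151 above it. Of the 35 genes, 17 are among this top 1%, and the highest of the 9 rats exceeded the lowest by only 1.18 to 1.42 times in each of them. The beta-actin control probes gave a 3′ to 5′ ratio of 2.51 in control 3, of 5.23 in CUMS 2 and of 4.96 in CUMS 4. The part of these features in the results below was not tested.

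**Figure D1:**
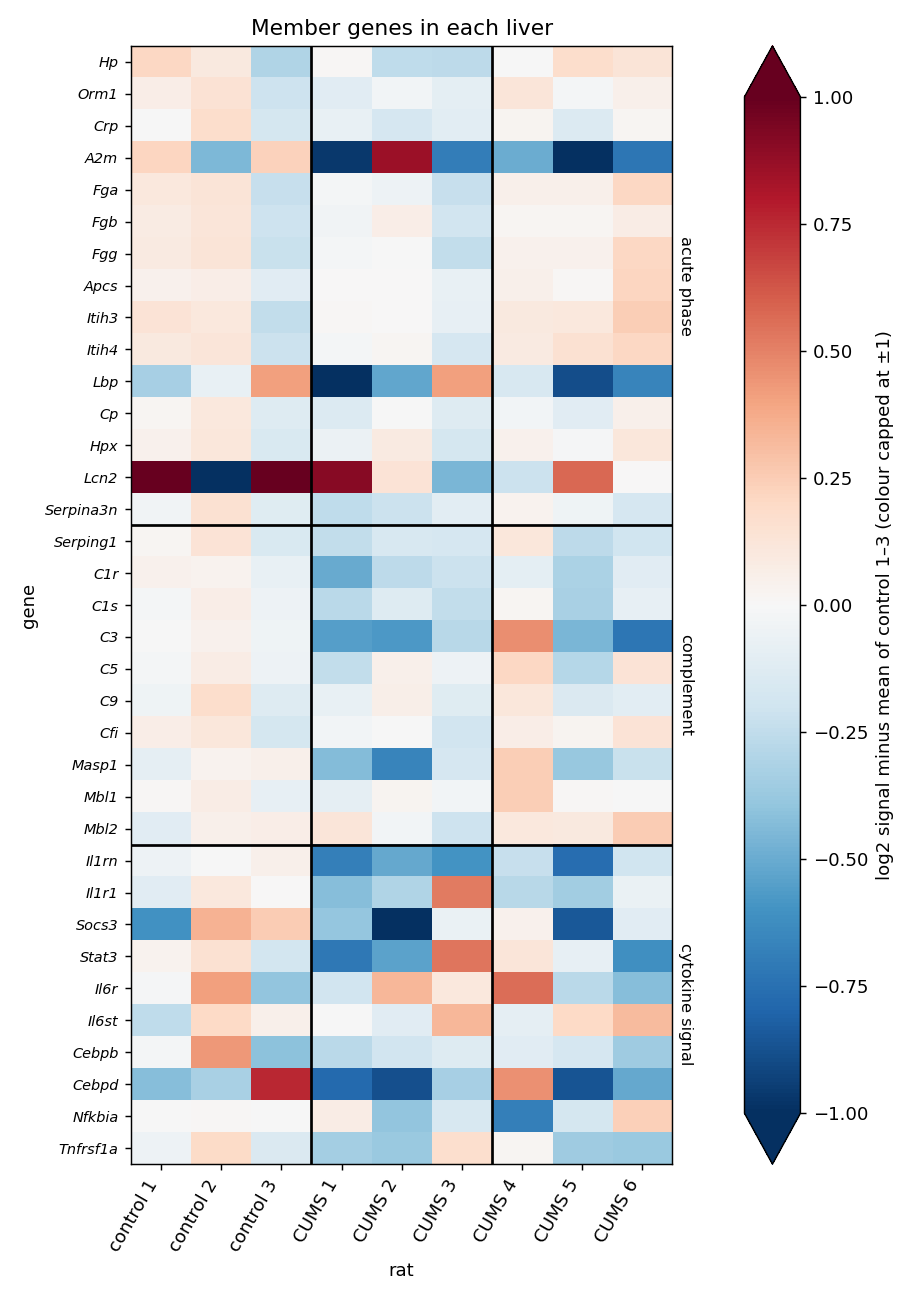
Log2 signal of the 35 genes (rows, ordered by list) in each of the 9 rats (columns) minus the mean of control 1–3, with the colour capped at 1 in either direction. Control 3 is the lowest of the 9 rats in 8 of the 15 acute phase genes, A2m, Lbp and Lcn2 differ between rats of the same group, and the columns of CUMS 1 and CUMS 3 each have 29 of 35 genes below the control mean.

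Among the acute phase genes, the abundant plasma proteins differed little between rats, and the differences between groups were within 0.3 on the log2 scale in 13 of the 15 genes, all but A2m and Lbp. Fga, the fibrinogen alpha chain, gave signals of 32876, 33399 and 26052 in control 1–3, of 30136, 29554 and 26079 in CUMS 1–3 and of 31636, 31720.4 and 35242 in CUMS 4–6. Fgb, the beta chain, read 38038, 39062 and 31147 in control 1–3, 35112, 37565 and 31372 in CUMS 1–3 and 36368, 36357 and 37772 in CUMS 4–6. Fgg, the gamma chain, stood at 36625, 37768 and 29558 in control 1–3, at 33904, 34321 and 29084 in CUMS 1–3 and at 35462, 35567 and 39756 in CUMS 4–6. In each of the 3 chains control 3 and CUMS 3 were the dimmest rats, control and CUMS 1–3 overlapped, and for Fga and Fgg every rat of CUMS 1–3 lay below every rat of CUMS 4–6. The log2 difference of CUMS 1–3 from control was −0.10 for Fga (standard error 0.11), −0.05 for Fgb (0.02 with quantile normalization) and −0.09 for Fgg (limma, adjusted p from 0.905 to 0.947). A second Fga probe set gave −0.53 for the same difference, with an unadjusted p of 0.0639 from limma, and its groups also overlapped.

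Haptoglobin (Hp), which binds free haemoglobin, was measured at 31893, 29497 and 22384 in control 1–3, at 27867, 23149 and 23053 in CUMS 1–3 and at 27484, 31227 and 30262 in CUMS 4–6. Its log2 difference was −0.17 between CUMS 1–3 and control (95% interval −0.46 to 0.13) and −0.27 between CUMS 1–3 and CUMS 4–6 (−0.57 to 0.03), and all groups overlapped. C-reactive protein (Crp) read 19397, 21922 and 17208 in control 1–3, 18446, 17318 and 18045 in CUMS 1–3 and 19803, 17687 and 19704 in CUMS 4–6. The range of Crp over all 9 rats was thus 1.27 times, with overlap in each comparison. Serpina3n, a protease inhibitor, had the smallest unadjusted p of the list against control in CUMS 1–3 (0.0734, adjusted p 0.753, limma). It stood at 25751, 29336 and 24268 in control 1–3, at 22112, 22666 and 24448 in CUMS 1–3 and at 27057, 25559.8 and 23472 in CUMS 4–6. CUMS 1–3 and control overlapped only in that CUMS 3 lay above control 3, and leaving out either of these rats separated the groups. Itih4, a heavy chain of the inter-alpha-trypsin inhibitor family, read 30315, 30826 and 24362 in control 1–3, 27997, 28679 and 25171 in CUMS 1–3 and 30196, 31472 and 32689.7 in CUMS 4–6. Every CUMS 1–3 rat was below every CUMS 4–6 rat for Itih4, with a log2 difference of −0.21 (95% interval −0.44 to 0.03, adjusted p 0.9996, limma). The other genes of this kind were Orm1, Apcs, Itih3, Cp and Hpx, which code for an acid glycoprotein, serum amyloid P, an inter-alpha-trypsin inhibitor chain, ceruloplasmin and the haem carrier hemopexin. Their differences from control lay between −0.09 and −0.02 in CUMS 1–3 and between −0.03 and 0.15 in CUMS 4–6.

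A2m, Lbp and Lcn2 had the widest ranges over the 9 rats among the acute phase genes. A2m, a broad protease inhibitor, gave 11290.4, 7131 and 11418 in control 1–3, 4974, 17568 and 6025 in CUMS 1–3 and 6878, 3411 and 5898 in CUMS 4–6. CUMS 2 had the highest A2m signal of the 9 rats, CUMS 1 and CUMS 3 stood under every control, and so did all of CUMS 4–6. Against control the log2 difference was −0.91 in CUMS 4–6 (0.532 times, standard error 0.42, unadjusted p 0.0546, adjusted p 0.779, limma) and −0.27 in CUMS 1–3. Leaving out CUMS 1 turned the value of CUMS 1–3 to 0.08, and leaving out CUMS 2 moved it to −0.83. Lbp, which hands bacterial lipopolysaccharide to Cd14, read 6829, 8151 and 11426 in control 1–3, 4006, 6012 and 11407 in CUMS 1–3 and 7694, 4662 and 5453 in CUMS 4–6. Control 3 and CUMS 3 were the 2 highest rats for Lbp, and the groups overlapped, with log2 differences from control of −0.40 and −0.57. Lcn2, an iron-siderophore binding protein made by hepatocytes and neutrophils, ranged over 15.2 times, from 794 in control 2 to 12082 in control 3. Its other signals were 9139.5 in control 1, 8329, 4872 and 3229.5 in CUMS 1–3 and 3834, 6599.7 and 4457 in CUMS 4–6. The Lcn2 difference of CUMS 1–3 from control was 0.19 with a 95% interval of −1.60 to 1.99. Without control 2 it was −1.05, and without CUMS 1 it was −0.163.

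Over the 15 acute phase genes, 14 had a lower mean in CUMS 1–3 than in control and 5 in CUMS 4–6. The median log2 difference was −0.09 for CUMS 1–3 and 0.05 for CUMS 4–6, against −0.01 and −0.02 over all probe sets tested. With quantile normalization both were near 0, at −0.03 and −0.02, and without control 3 they were −0.17 and −0.05, so the sign for CUMS 4–6 turned in both. No acute phase gene had all of CUMS 1–3 below all of control, where 6.32% of all probe sets did. Without control 3 that count became 11 of 15, and over all 35 genes it moved from 6 to 19, against 11.2% of all probe sets. Between the CUMS groups 12 of 15 had the lower mean in CUMS 1–3 (median −0.11), and 6 did not overlap (Orm1, Fga, Fgg, Apcs, Itih3 and Itih4), where 4.37% of all probe sets were separated in that direction. The 294 other probe sets of the top 1% had a median difference of −0.106 between the CUMS groups, beside −0.132 in the 17 genes of the list that are this bright. Against control the other bright probe sets had medians of 0.003 in CUMS 1–3 and 0.115 in CUMS 4–6, and the 17 genes −0.081 and 0.051. These differences between the 2 sets were not tested. With quantile normalization the acute phase median between the CUMS groups was 0.01 and 2 genes, Fga and Fgg, stayed separated.

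**Figure D2:**
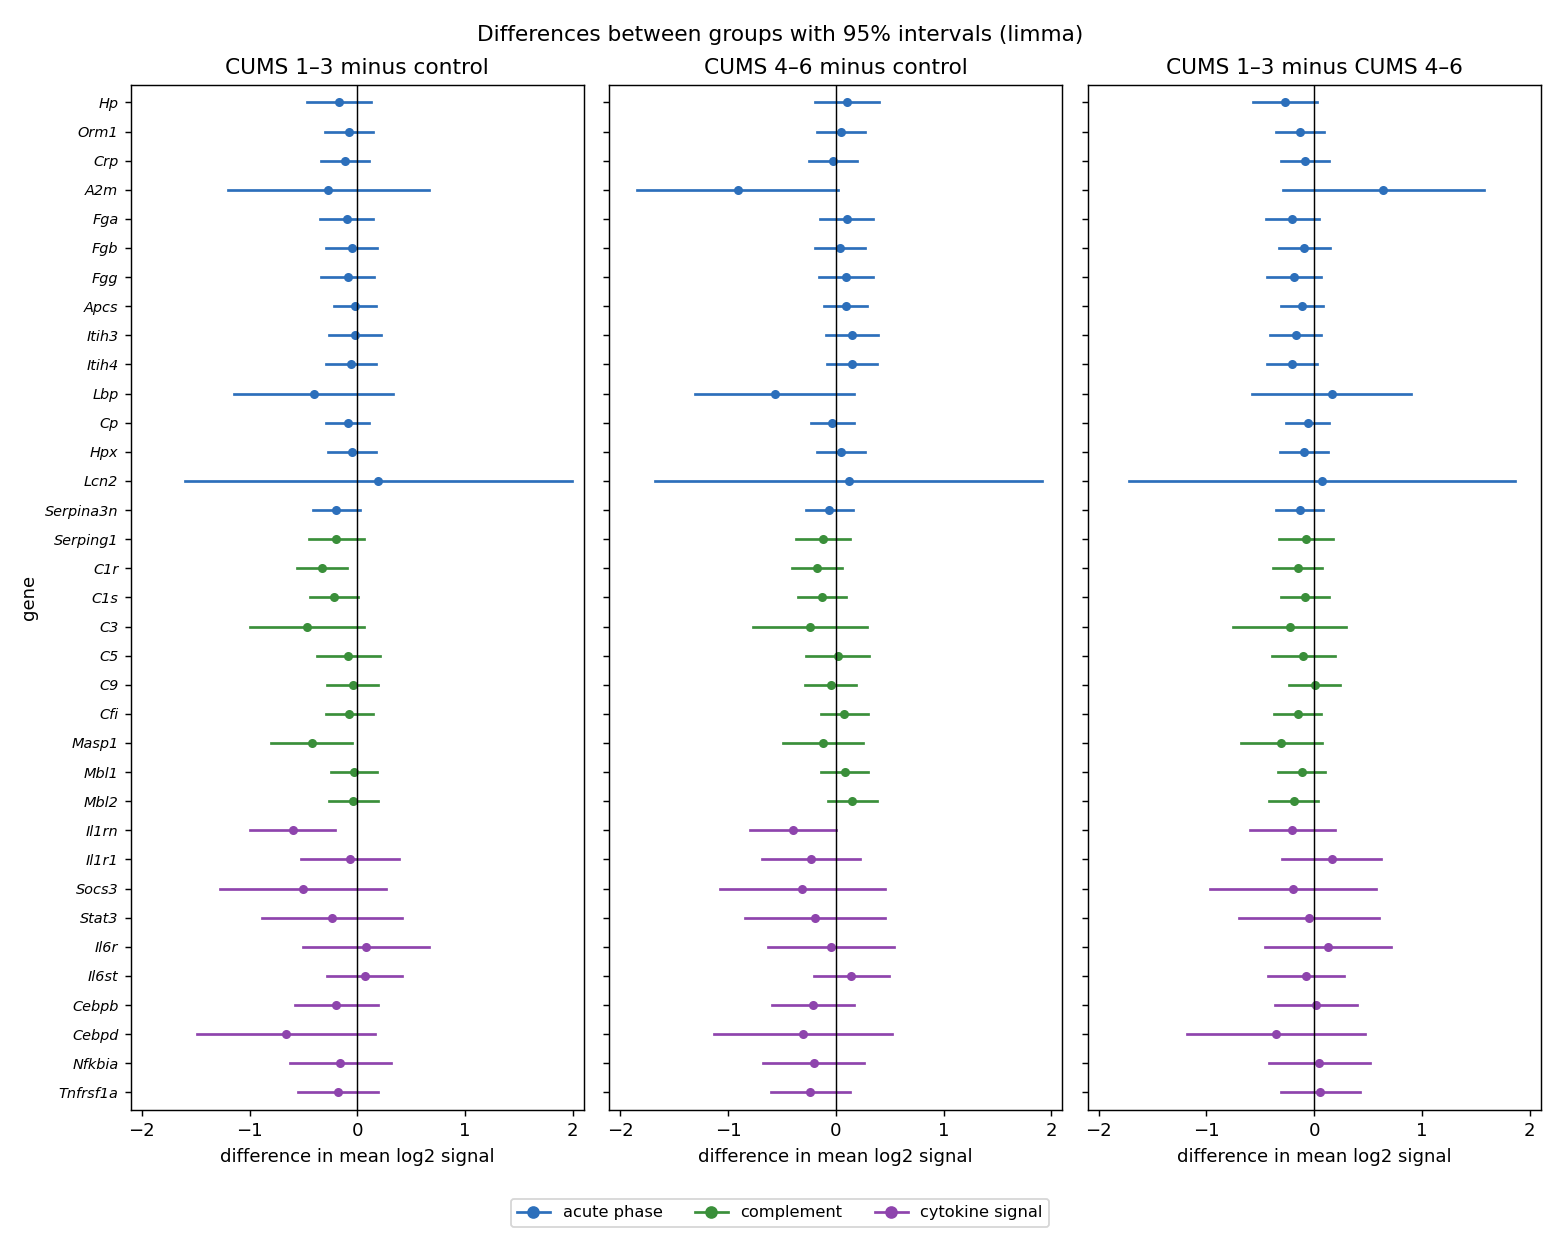
Difference in mean log2 signal (point) with its 95% interval (line, limma) for the 35 genes in 3 comparisons, coloured by list, with a line at 0 for no difference. The intervals of C1r, Masp1 and Il1rn lie below 0 for CUMS 1–3 against control, the interval of Il1rn also for CUMS 4–6, and all intervals span 0 between the CUMS groups.

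The complement genes of CUMS 1–3 had a lower mean than control in all 10 measured members (in Mbl1 and Mbl2 a higher one with median centring), and in 5 of them (Serping1, C1r, C1s, C3 and Masp1) every CUMS 1–3 rat lay below every control rat, where 6.32% of all probe sets did. With median centring C3 and Masp1 alone of these 5 stayed separated. C1r, the protease that starts the classical pathway, read 14041, 13942 and 12934 in control 1–3, 9613, 11349 and 11715 in CUMS 1–3 and 12747, 10954 and 12586 in CUMS 4–6. All 6 CUMS rats were below all 3 controls for C1r. The log2 difference was −0.33 in CUMS 1–3 (0.796 times, standard error 0.10, unadjusted p 0.00921, adjusted p 0.702, limma) and −0.18 in CUMS 4–6 (adjusted p 0.821). Its partner protease C1s gave 20441, 21636 and 19993 in control 1–3, 17146, 18882 and 17439 in CUMS 1–3 and 20987, 16494 and 19548 in CUMS 4–6. CUMS 1–3 were below every control for C1s as well, at a log2 difference of −0.22 (adjusted p 0.745, limma), whereas CUMS 4 lay among the controls. Serping1, the inhibitor of C1r and C1s, had its controls at 22141 to 27099 and CUMS 1–3 at 20740.1 to 22003, a gap smaller than the spread of either group.

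C3, the protein on which all complement pathways converge, was even in the controls at 13464, 13865 and 13116. It read 9199, 9062 and 11130.3 in CUMS 1–3 and 18576, 9825 and 8170.5 in CUMS 4–6. CUMS 1–3 and the rats CUMS 5 and CUMS 6 lay below all controls, while CUMS 4 had the highest C3 signal of the 9 rats. The log2 difference for CUMS 1–3 was −0.47 (0.724 times, 95% interval −0.99 to 0.06, adjusted p 0.758, limma). Masp1, a protease of the lectin pathway, stood at 2520.1, 2761 and 2789.6 in control 1–3, at 1989, 1697 and 2390.4 in CUMS 1–3 and at 3187, 2071 and 2298 in CUMS 4–6. CUMS 1–3 were below all controls and CUMS 4 above them, with log2 differences of −0.42 in CUMS 1–3 (unadjusted p 0.0309, adjusted p 0.733, limma) and −0.12 in CUMS 4–6. The other Masp1 probe sets gave 0.08 and −0.32 for CUMS 1–3 against control, so the probe sets of this gene do not share a direction.

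Mbl1 and Mbl2 code for the mannose-binding lectins that activate Masp1. Mbl1 read 7253, 7570.1 and 6789 in control 1–3, 6749.7, 7319 and 7065 in CUMS 1–3 and 8546, 7243 and 7165 in CUMS 4–6. Mbl2 gave 16624, 18660.0 and 18897 in control 1–3, 19642, 17672 and 15647 in CUMS 1–3 and 19443, 19260.5 and 21555 in CUMS 4–6. For Mbl2 all of CUMS 4–6 lay above all controls, at 0.15 on the log2 scale (adjusted p 0.839, limma), and it was the only one of the 35 genes to do so, against 5.34% of all probe sets. In CUMS 1–3 the differences of Mbl1 and Mbl2 were −0.03 and −0.04, and with median centring 0.02 and 0.01. C5 and C9, of the terminal pathway, and Cfi, which inactivates C3b, overlapped between control and each CUMS group, with differences between −0.08 and 0.08. Cfi read 29022, 29855 and 24423 in control 1–3, 27128, 27636 and 24262 in CUMS 1–3 and 29037, 28126 and 30459 in CUMS 4–6, with every CUMS 1–3 rat below every CUMS 4–6 rat. Over the 10 genes the median log2 difference from control was −0.14 in CUMS 1–3 and −0.08 in CUMS 4–6, where 6 of 10 were lower. Without CUMS 5 the second value was 0.01.

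**Figure D3:**
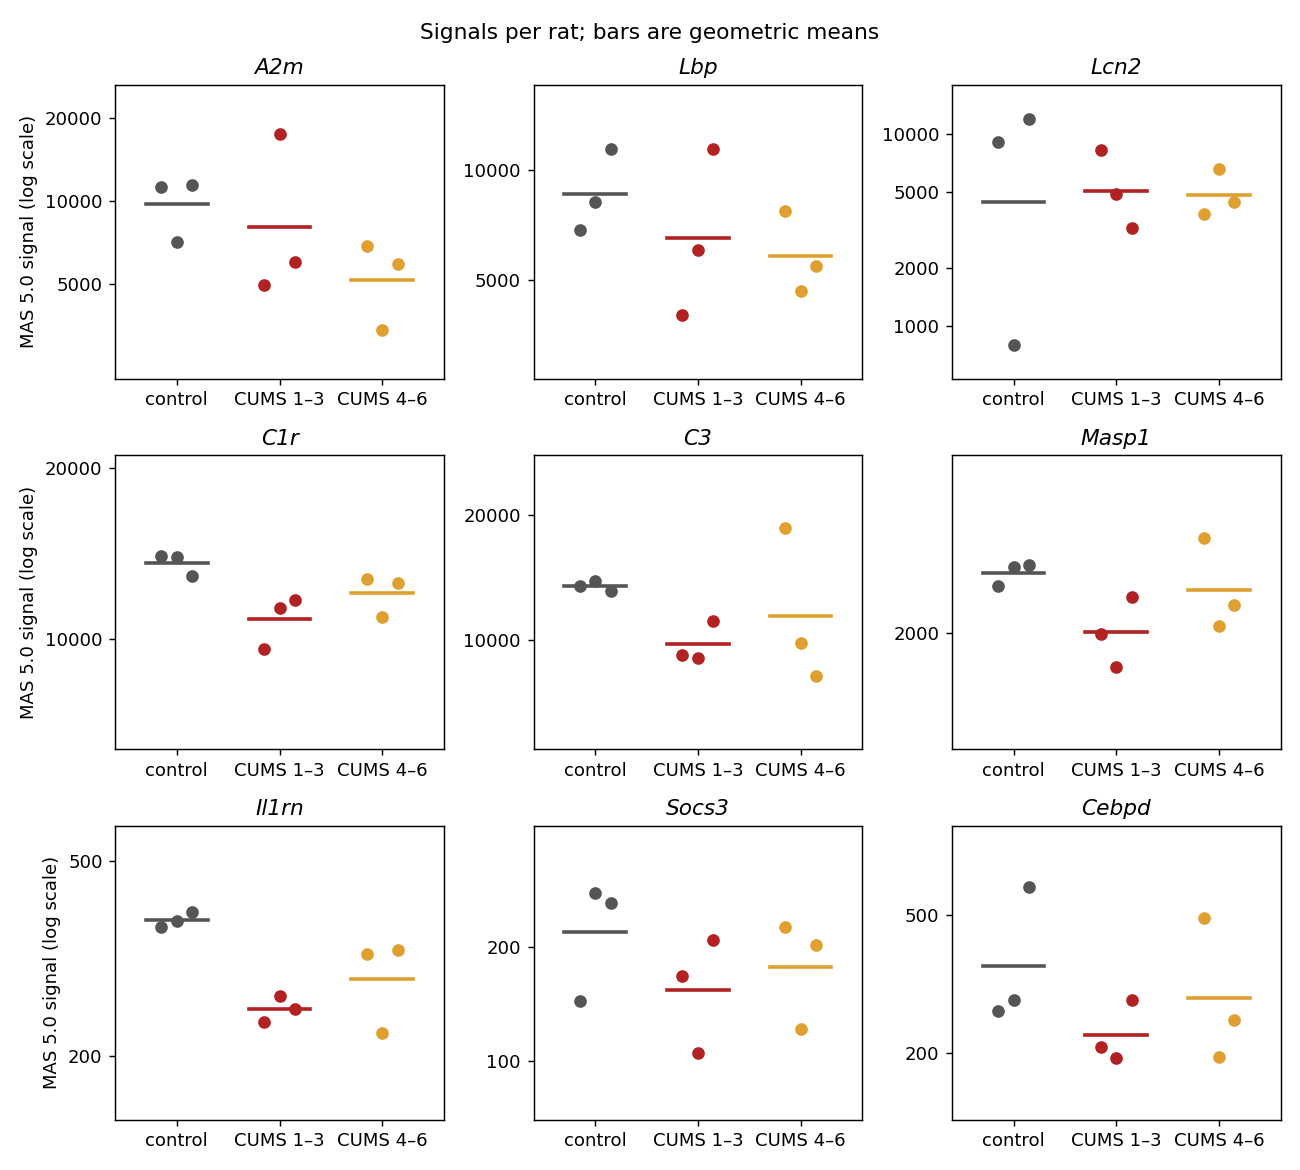
MAS 5.0 signal (log scale, each panel with its own range) of 9 genes in each rat of control, CUMS 1–3 and CUMS 4–6. Each point is a rat, and each bar a geometric mean of its group. C1r, C3, Masp1 and Il1rn have every CUMS 1–3 rat below every control, A2m has CUMS 2 at 17568 above all other rats, and Lcn2 has control 2 at 794 far below the rest.

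Of the cytokine signal genes, Il1rn was the member whose groups were farthest apart for its spread. Il1rn, the secreted antagonist of the interleukin 1 receptor, read 366, 378 and 392 in control 1–3, 235, 265 and 249.7 in CUMS 1–3 and 323, 223 and 329.6 in CUMS 4–6. All 6 CUMS rats lay below all controls. The log2 difference was −0.60 in CUMS 1–3 (0.66 times, standard error 0.18, unadjusted p 0.00678, adjusted p 0.665, limma) and −0.40 in CUMS 4–6 (0.759 times, unadjusted p 0.0494, adjusted p 0.779). C1r and Il1rn were the 2 genes of 35 in which all 6 CUMS rats lay below all controls, where 2.15% of all probe sets did. The receptor Il1r1 itself overlapped, at 6228, 7235 and 6763 in control 1–3, 5012, 5454 and 9622 in CUMS 1–3 and 5552, 5275 and 6429 in CUMS 4–6, with CUMS 3 the highest and CUMS 1 the lowest of the 9 rats.

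The receptor of interleukin 6 showed no difference between groups beyond its spread. Il6r gave 3035, 4076 and 2335 in control 1–3, 2689, 3869 and 3305 in CUMS 1–3 and 4523, 2539 and 2289 in CUMS 4–6. Il6st read 4462, 6118 and 5527 in control 1–3, 5297, 4909.9 and 6687 in CUMS 1–3 and 5008, 6117 and 6639 in CUMS 4–6. The log2 differences of CUMS 1–3 from control were 0.08 for Il6r (95% interval −0.50 to 0.67) and 0.07 for Il6st (−0.28 to 0.42), and the other 3 Il6st probe sets gave 0.02, 0.12 and 0.16. With array weights the Il6r value was −0.04. Stat3, the transcription factor of this pathway, stood at 1587, 1717 and 1359 in control 1–3, at 941, 1068 and 2241 in CUMS 1–3 and at 1678, 1462 and 1012 in CUMS 4–6. CUMS 3 had the highest Stat3 signal of the 9 rats and CUMS 1 the lowest, so the difference of −0.24 had a 95% interval of −0.89 to 0.41, and a second Stat3 probe set gave 0.29.

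Socs3 and Cebpd, both rapidly induced by interleukin 6, had lower means in the CUMS groups with overlap. Socs3 read 145, 279 and 262 in control 1–3, 168, 105 and 209.7 in CUMS 1–3 and 226, 122 and 203 in CUMS 4–6, and log2 differences were −0.51 and −0.31 with standard errors of 0.35. Cebpd gave 265, 285 and 599 in control 1–3, 208, 193 and 283 in CUMS 1–3 and 489.6, 195 and 249.7 in CUMS 4–6. Control 3 was the highest rat for Cebpd, and CUMS 3 alone reached the range of the controls in its group. The log2 difference of CUMS 1–3 was −0.66 (standard error 0.37, adjusted p 0.77, limma). A second Cebpd probe set gave −1.66 (unadjusted p 0.00591) with every CUMS 1–3 rat below every control, and −1.06 in CUMS 4–6, again without overlap. Cebpb read 8314, 11382 and 6372 in control 1–3, 7019.9, 7391 and 7741 in CUMS 1–3 and 7801, 7529 and 6619.6 in CUMS 4–6, and its difference of −0.20 became 0.02 without control 2.

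Nfkbia, the inhibitor that retains NF-kappaB in the cytoplasm, was even in the controls at 814, 824 and 815. It gave 861, 623 and 734 in CUMS 1–3 and 508, 724 and 967 in CUMS 4–6, on both sides of the controls. Tnfrsf1a, a receptor of tumour necrosis factor, stood at 3987, 4707 and 3729.6 in control 1–3, at 3262, 3191 and 4636 in CUMS 1–3 and at 4184, 3213 and 3185 in CUMS 4–6. CUMS 3 was again the high rat of its group for Tnfrsf1a, as for Il1r1 and Stat3. Over the 10 genes the median log2 difference from control was −0.19 in CUMS 1–3 (8 lower) and −0.22 in CUMS 4–6 (9 lower). Without CUMS 3 the first value was −0.36, and 5 of the 10 genes then lay wholly below the controls in place of 1. That count over all 35 genes moved from 6 to 12 without CUMS 3, against 13.2% of all probe sets. Between the CUMS groups 5 of 10 were lower, with a median of −0.02.

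**Figure D4:**
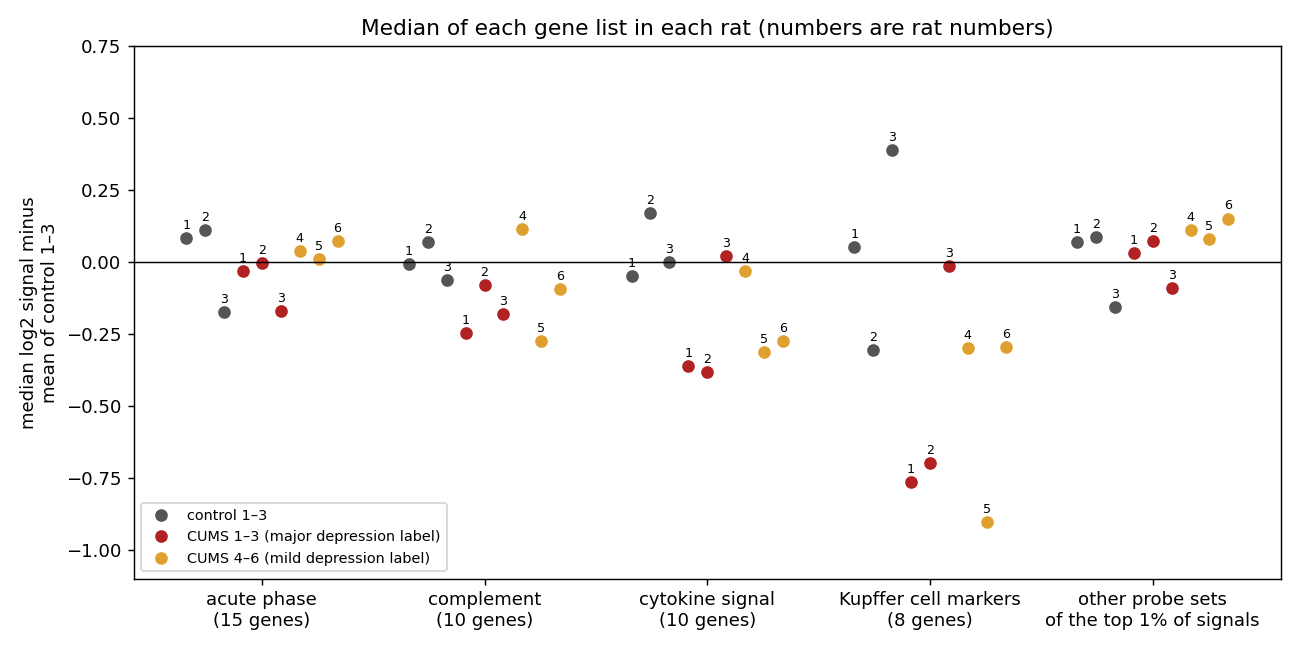
Median over the genes of each list of the log2 signal minus the mean of control 1–3, by rat (numbers are rat numbers), for the 3 gene lists, the Kupffer cell markers and the other probe sets of the top 1%. Control 3 and CUMS 3 are the lowest rats for acute phase genes (−0.174 and −0.171) and for the other bright probe sets, and CUMS 1, CUMS 2 and CUMS 5 are the lowest for cytokine signal genes and Kupffer cell markers.

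Genes of the same pathways outside the list gave 0 calls at the adjusted threshold in each comparison. Of the negative acute phase proteins, whose transcription declines in the response, 7 of 8 were tested. All 7 had a higher mean in CUMS 4–6 than in control (median 0.14), where 53.7% of all probe sets had a lower one. All 7 were also lower in CUMS 1–3 than in CUMS 4–6 (median −0.165), as were 48.7% of all probe sets. The 294 other probe sets of the top 1% moved the same way, with medians of 0.115 and −0.106 in these comparisons. Albumin (Alb) read 26932, 26122 and 20382 in control 1–3, 22976, 17128 and 19912 in CUMS 1–3 and 29583, 27539.6 and 25609.9 in CUMS 4–6. The CUMS groups were separated for Alb, at −0.47 on the log2 scale (unadjusted p 0.00505, adjusted p 0.9996, limma), and CUMS 1–3 differed from control by −0.29 with overlap. Apoa1, of high density lipoprotein, stood at 19393, 15085 and 19318 in control 1–3, at 22242, 24293 and 17096 in CUMS 1–3 and at 19841, 23158 and 25574 in CUMS 4–6, or 0.24 and 0.35 above control. Positive acute phase genes, too, were higher in CUMS 4–6 than in control in 10 of 15 and lower in 5, where 53.7% of all probe sets were lower. The sign of their median turned with quantile normalization and without control 3, as given above.

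Among other complement genes, 18 of 22 were tested, and 12 had a lower mean in CUMS 1–3, 5 of them at an unadjusted p under 0.05, with 0 higher at that level. Of all probe sets 51.1% had a lower mean in this comparison, 4.17% were lower at that p and 2.59% higher. For CUMS 4–6 the mean was lower in 8 of the 18 (53.7% of all probe sets). At that p 1 was lower (3.55%) and 2 were higher (2.73%). C1qa, a chain of C1q that macrophages make, read 7062, 5855 and 6314 in control 1–3, 4272, 4081 and 5717 in CUMS 1–3 and 5807, 4453 and 7563 in CUMS 4–6. CUMS 1–3 lay below all controls for C1qa, at −0.46 (adjusted p 0.733, limma). C1qc, a second chain, gave 2877, 2163 and 3367 in control 1–3, 1715, 1604 and 2374 in CUMS 1–3 and 2361, 1662 and 2822 in CUMS 4–6, with a log2 difference of −0.56 in CUMS 1–3 and overlap at CUMS 3. Of the other cytokine signal genes, 20 of 26 were tested, and 14 had a lower mean in CUMS 1–3, 5 of them at an unadjusted p under 0.05 (4.17% of all probe sets) and 0 higher (2.59%). For CUMS 4–6 the mean was also lower in 14 of the 20 (53.7%), in 4 of them at that p (3.55%), with 0 higher (2.73%). Il1b, the ligand that Il1rn antagonizes, stood at 599.8, 287 and 764 in control 1–3, at 278, 156 and 242 in CUMS 1–3 and at 299, 202 and 289.7 in CUMS 4–6. Every CUMS 1–3 rat lay below every control for Il1b, control 2 being nearest, at −1.21 on the log2 scale (0.431 times, unadjusted p 0.00518, adjusted p 0.648, limma). Nfkb2, an NF-kappaB subunit, read 219, 219 and 269 in control 1–3, 148, 189 and 130.3 in CUMS 1–3 and 205, 136 and 180.1 in CUMS 4–6, so that both CUMS groups lay below the controls. Il6 itself, at signals from 8.85 to 37.9, and Tnf and Socs1 were below the filter and were not tested.

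Hepatocyte markers were bright in every rat, with summed signals of 6 genes from 114483 in control 3 to 155191 in CUMS 6. Signals from bulk liver cannot tell fewer cells of a type from less RNA per cell. Kupffer cell markers, of which 8 of 10 have a probe set and none was at 0, were lowest in the 3 rats in which the cytokine signal genes were lowest: their median lay 0.766, 0.698 and 0.904 below the control mean in CUMS 1, CUMS 2 and CUMS 5 and 0.016 below it in CUMS 3. The lists parted in control 2, at −0.308 for the Kupffer cell markers and 0.171, the highest of the 9 rats, for the cytokine signal genes. They parted also in CUMS 4, at −0.301 and −0.033, and in control 3, at 0.387 and 0.001. The Kupffer cell median of control 3 was the highest of the 9 rats, and it enters the control mean. The markers did not share a direction in control 3, which was the highest rat in 5 of the 8. It was the lowest of the 9 rats in 2, Clec4f (4304) and Cd14 (4534). In CUMS 1–3, 7 of the 8 had a lower mean than in control (51.1% of all probe sets), with Clec4f, which Kupffer cells alone express in liver, at −0.07 and Cd14 higher at 0.30. Every CUMS 1–3 rat lay below every control in 2 of the 8 (6.32% of all probe sets) and above in 1, Cd14 (5.3%). For CUMS 4–6 the mean was lower in 6 of the 8 (53.7%), with 3 wholly below the controls (6.29%) and 1, Cd14, above (5.34%). The median log2 difference of the 8 from control was −0.48 in both CUMS groups. The summed signal of the 8 was 20669.5 to 24280 in control, 16795.5 to 23102.8 in CUMS 1–3 and 17702.8 to 22855 in CUMS 4–6. Of the neutrophil markers 5 of 8 have a probe set, and only 2 of these, S100a8 and S100a9, passed the filter on low signals. The 5 summed to 996, 1078 and 5542 in control 1–3, to 1210.2, 3124 and 10132 in CUMS 1–3 and to 2709, 1744 and 1468 in CUMS 4–6, with control 3 and CUMS 3 the highest rats. Stellate cell and fibroblast markers, all 9 with a probe set, summed to 31668 in control 3, to 7229 and 7094 in control 1 and 2, to 4313 to 5143 in CUMS 1–3 and to 5531 to 7179 in CUMS 4–6. All 8 tested had a lower mean in CUMS 1–3 than in control (51.1% of all probe sets), with a median log2 difference of −1.14. In 6 of them every CUMS 1–3 rat lay below every control (6.32%). In CUMS 4–6 all 8 were lower too (53.7%), with a median of −0.66, and 1 did not overlap (6.29%). Control 3 was the highest of the 9 rats in all 8, and it enters the control mean. The part of these cells in the values of the 35 genes and of Il1b, C1qa and C1qc was not tested.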

How the data were processed

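Liver RNA of 9 GK rats was hybridised to Affymetrix rat arrays, 1 array per rat. The deposited values are MAS 5.0 signal intensities, which the authors left linear. Each array had been brought to the same trimmed mean, and arrays carry no read depth. The number of arrays limits the precision. The sources used here give no scan date and no pairing of rats.

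The 57 control probe sets were left out of 31042 others, signals below 1 (586 values) were set to 1, and log2 was taken. A filter on the mean log2 signal then dropped the dimmest 40% and kept 18625 probe sets. Symbols came from the platform annotation, which gives 1 symbol to 20826 probe sets, several to 436 and none to 9780. The 3 groups were fitted together in limma 3.58.1 (R 4.3.3) with a variance trend and 6 residual degrees of freedom, and p-values were adjusted over all 18625 probe sets by Benjamini-Hochberg. Scripts were tested on simulated data. Groups follow the symptom labels, and nothing says more of the rats than that each is a separate sample, so p-values measure the spread between these rats.

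The genes and lists were chosen with earlier results of these data known. Described in full are, from each list, the 3 genes with the smallest unadjusted p in each comparison and a set chosen for their role, and from each further pathway list the 2 genes with the smallest p in CUMS 1–3 against control. C4a and C4b, in that set, had no probe set of their own. Genes named outside this rule were chosen after their values were seen. Marker lists for hepatocytes, Kupffer cells, neutrophils, stellate cells, blood, and pancreas, gut and kidney were summed per rat. The last 2 lists summed to 22572 to 29235 (2 of 3 genes) and to 953 to 1736 (8 genes). Alternatives were quantile normalization, median centring, log2 of the signal plus 50, no filter, the upper 40% alone, separate fits for each pair of groups, no variance trend, array weights, a replicate block, the second probe set of a gene, ANOVA and leaving out each rat in turn. Promoter sequences came from RefSeq (GRCr8), and motifs were searched on both strands with overlaps allowed.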

Additional observations from a re-analysis of the deposited data

How the results depend on the processing

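No member was called under any alternative run in any comparison (limma adjusted p at or above 0.391 in the 732 reruns of 41 named values, of which 27 never changed sign). The signs that turned were all of uncalled differences. For CUMS 1–3 against control these were Fgb under quantile normalization (0.023), Mbl1 (0.017) and Mbl2 (0.012) under median centring, Mbl2 (0.0125) and Il6r (−0.037) with array weights, and, on the second probe set, Masp1 (0.081), Fgb (0.75, from a dim probe set) and Stat3 (0.29). With a rat left out, values for the same comparison ran from −0.829 (without CUMS 2) to 0.081 (without CUMS 1) for A2m, from −0.156 (without control 3) to 0.0166 (without CUMS 3) for Fgb, from −1.05 (without control 2) to 0.915 (without control 3) for Lcn2, and from −0.074 (without control 3) to 0.0048 (without control 2) for Mbl1. They ran from −0.117 (without CUMS 1) to 0.047 (without CUMS 3) for Mbl2, from −0.113 (without control 3) to 0.289 (without control 2) for Il6r, from −0.062 (without CUMS 3) to 0.169 (without control 2) for Il6st, and from −0.399 (without control 3) to 0.0196 (without control 2) for Cebpb. Fgb was also above 0 without control 2 (0.0070), and below 0 were Lcn2 without CUMS 1 (−0.163), Il6r without CUMS 2 (−0.041) and Il6st without control 1 (−0.059). Cebpb in CUMS 4–6 against control ran from −0.414 (without control 3) to 0.0040 (without control 2). Between the CUMS groups, Masp1 (0.19) and Il1r1 (−0.14) turned on the second probe set, and with a rat left out Il1r1 ran from −0.133 (without CUMS 3) to 0.338 (without CUMS 1) and Cebpd from −0.636 (without CUMS 5) to 0.027 (without CUMS 4).

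The count of genes with every CUMS 4–6 rat below every control was 3, and 6 under quantile normalization, 0 under median centring and 3 to 10 with a rat left out (10 without CUMS 4, against 11.6% of all probe sets). Between the CUMS groups the count of 7 became 2 under both quantile normalization and median centring, and 7 to 12 with a rat left out (11 without CUMS 2, against 8.16%, and 12 without CUMS 5, against 8.68%). For CUMS 1–3 against control the 6 became 6 to 19 with a rat left out (19 without control 3, against 11.2%, and 12 without CUMS 3, against 13.2%). The cytokine signal median of CUMS 1–3 against control ranged from −0.36 (without CUMS 3) to −0.088 (without CUMS 2), and the acute phase median between the CUMS groups was 0.0089 under quantile normalization. The acute phase median of CUMS 4–6 against control was −0.021 under quantile normalization and −0.051 without control 3. The cause was not tested.

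The sources used here do not say whether the replicate numbers of control 1–3 and CUMS 1–3 pair rats. Deviations from the group means correlated at 0.003, −0.049 and 0.140 for equal numbers. For unequal numbers they correlated between −0.149 and 0.155, the highest being control 1 with CUMS 2. With so few rats these correlations cannot decide whether the numbers pair rats. With the number as a replicate block, 0 members and 0 of all probe sets were called, with 1361 probe sets at an unadjusted p under 0.05 against 1124 in the same 2 groups without the block. In this balanced layout the block cannot move a mean difference. CUMS 4–6 share no number with a control.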
